A study of Mus musculus with 4 samples.

Results

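Long noncoding RNAs, pseudogenes and unannotated transcripts made up 30 of the 282 genes in a deposited table of genes that differed between 2 sorted populations of regulatory T cells (Tregs), a CD4 T cell type that holds immune responses in check, from mice. The members were all rows whose biotype was neither protein coding nor a T cell receptor or immunoglobulin segment. They comprised 10 long noncoding RNAs (8 lincRNAs, 1 antisense and 1 sense intronic gene), 11 pseudogenes and 9 unannotated transcripts, listed with neither a gene name nor a biotype. Since the 9 lie on 9 different chromosomes, each is called by its chromosome. RNA came from spleen and lymph node Tregs of Foxp3RFP-Cre.RosaYFPMll1fl/fl male mice aged 6 to 8 weeks, and 300000 cells of each kind were sorted to a stated purity above 95%. In these mice the Cre recombinase is driven by Foxp3, so that YFP from the Rosa locus marks cells in which Cre has acted. RFP+YFP+ Tregs carried the genotype label MLL1KO and RFP+YFP- Tregs carried the label WT, but both populations came from mice with the floxed Mll1 alleles and the Foxp3-driven Cre. Each population had 2 libraries, titled with mouse number 1 or 2, and whether a number stands for 1 animal or for several was not stated. P-values therefore measure the spread between these libraries, which may be technical.

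A long noncoding RNA is transcribed and spliced like a messenger RNA but has no long open reading frame, and some act on the gene next to them. A processed pseudogene is a copy of a messenger RNA that was reverse transcribed and inserted elsewhere in the genome, so that its sequence can be close to that of its parent gene. Reads from such a parent can then be assigned to the copy, depending on how reads with several matches are counted. MLL1 is a histone H3 lysine methyltransferase that acts at promoters and carries a CXXC domain, which binds unmethylated CpG dinucleotides.

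Values are normalized counts, that is, read counts per gene scaled by the authors with 1 size factor for each library. The listed genes summed to 204178 and 217923 normalized counts in YFP-positive mice 1 and 2, and to 322887 and 284131 in YFP-negative mice 1 and 2. These sums cover selected genes and are not the depth of the libraries. Kmt2a, the gene for MLL1, and the Treg genes Foxp3 and Cd4 were not analysed here, and neither the deletion nor the cell type was checked. Of 44 markers of other cell types, 6 were in the table. In YFP-positive Tregs, Igkc of B cells, Gzma of cytotoxic cells and Car2 of erythroid cells were lower, which made 3, and Gata1 of erythroid cells with Tcrg-C1 and Tcrg-C4 of gamma delta T cells were higher, which made the other 3. Igkc had 248.5 and 279.9 normalized counts in the YFP-positive and 1503 and 1072 in the YFP-negative libraries of mice 1 and 2, and Gzma had 7.28 and 37.1 against 108.8 and 252.8. The erythroid pair summed to 735.2 and 916.1 against 329.4 and 435.5. This sum hides the fall of Car2, with log2 fold changes of 2.45 for Gata1 and -1.81 for Car2. The gamma delta pair summed to 511.6 and 263.0 against 52.0 and 24.3. Because these shifts go in opposite directions, the sum of the 6, at 1503 and 1496 against 1993 and 1785, hides them. The other markers were not analysed here, and the part of these cells in the results was not tested. In such bulk samples, fewer cells of a type and less RNA per cell cannot be told apart.

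YFP-positive Tregs had higher values for 18 of the 30 members and lower values for the remaining 12. By limma with Benjamini-Hochberg adjustment over the table, all 30 passed an adjusted p of 0.05, as did 100% of the 282 listed genes, of which 30.5% were higher and 69.5% were lower. The 2 groups did not overlap in 30 of 30 members, against the same 100% of listed genes. The authors had selected every listed gene on this same contrast, so the tests describe the list and the counts of passing members carry no information about them. The direction was not fixed by the selection. Among the 247 protein-coding genes of the table, 26.7% were higher, against 60.0% of the members. The share that was higher was 6 of 10 among long noncoding RNAs, 6 of 11 among pseudogenes and 6 of 9 among unannotated transcripts, so each kind had more higher than lower members. Members had a median log2 fold change of 1.98 for higher and -1.92 for lower members, against 1.75 and -1.89 for coding genes, where the 1 member and 1 coding gene with a library at 0 were left out. The median of the mean normalized count was 195.1 over members and 282.8 over coding genes, and the median gene length was 1089 against 3818 bases. The members nearest to the limits of the authors' deposited table were Gm8172, with a log2 fold change of 1.01, and Gm34086, with an adjusted p of 0.0492.

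**Figure D1:**
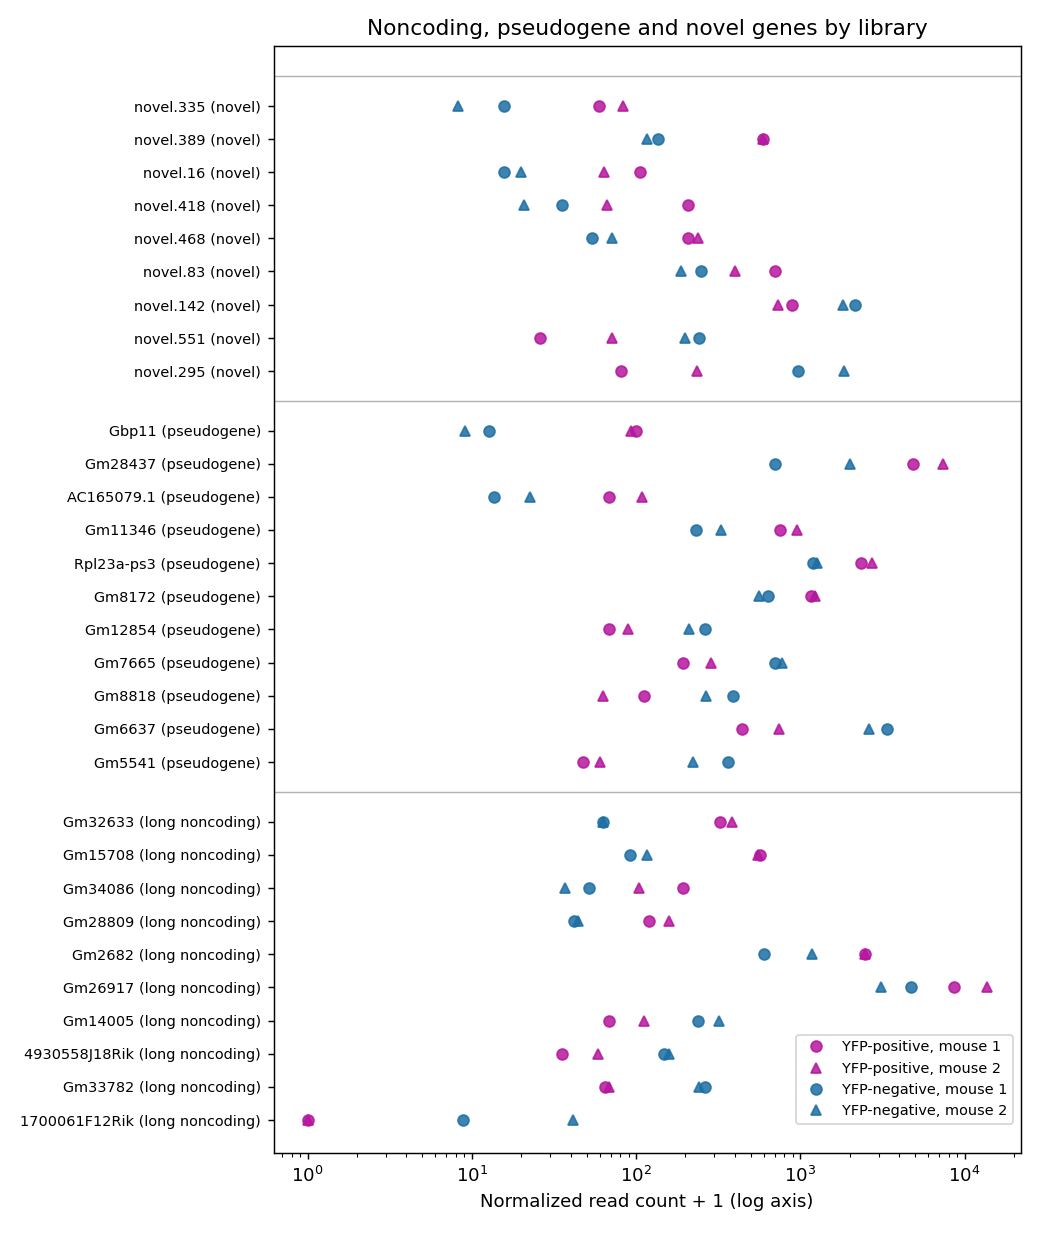
Normalized read count plus 1 (log axis) of the 30 members in each of the 4 libraries; circles are mouse 1 and triangles mouse 2, and rows are grouped as long noncoding RNA, pseudogene and unannotated transcript, the last with the table's own numbered identifiers. The 18 higher members have both YFP-positive points to the right of both YFP-negative points, and 1700061F12Rik lies at 1 in both YFP-positive libraries because it was listed at 0 there.

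Of the 30 members, 1 was listed at 0 in a whole group, the long noncoding RNA 1700061F12Rik (ENSMUSG00000085580, mm10 chromosome 2, 9189515 to 9197477, plus strand). It was listed at 0 in both YFP-positive libraries and at 7.84 and 40.5 normalized counts in YFP-negative mice 1 and 2. Its level was low and its YFP-negative libraries differed from each other, so no fold is given. Gm14005 (chromosome 2, 128178319 to 128502765, minus strand), named Morrbid in RefSeq, was the only member found on a list of 48 noncoding RNAs known in T cells or at MLL1-bound loci. Members were matched to this list by their listed names, and a second name was used for Gm14005 only. Morrbid is known in short-lived myeloid cells and in CD8 T cells as a repressor of the neighbouring gene Bcl2l11, which encodes the pro-apoptotic protein BIM. Here Gm14005 had 67.6 and 111 normalized counts in YFP-positive and 238 and 318 in YFP-negative mice 1 and 2. Its log2 fold change was -1.65 ± 0.42 (SE; limma adjusted p = 0.000358), and without YFP-negative mouse 2 it was -1.45 and did not pass (limma adjusted p = 0.0664, against at most 0.0328 in its other alternatives). Bcl2l11 lies 15.8 kb away and was not analysed here.

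4930558J18Rik (chromosome 1, 57359222 to 57377544, minus strand) had 34.3 and 57.3 normalized counts in YFP-positive and 146 and 157 in YFP-negative mice 1 and 2, a log2 fold change of -1.75 ± 0.48. It did not pass when either YFP-negative library was left out (limma adjusted p = 0.0524 without mouse 1 and 0.0663 without mouse 2, against at most 0.0403 in its other alternatives). Gm33782 (chromosome 10, 96310131 to 96362367) was even within each group, at 63.4 and 67.9 normalized counts in YFP-positive and 261 and 242 in YFP-negative libraries. It was 3.83-fold lower in YFP-positive Tregs, a log2 fold change of -1.92 ± 0.43.

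The higher long noncoding RNAs included Gm32633 (chromosome 7, 64001885 to 64020959), which had 323 and 384 normalized counts in YFP-positive and 61.8 and 62.1 in YFP-negative mice 1 and 2. This was a 5.71-fold difference and the largest rise among the 10 long noncoding RNAs, a log2 fold change of 2.49 ± 0.41 (SE; limma adjusted p = 1.72e-06). Gm15708, a gene within an intron of Bri3 (chromosome 5, 144277061 to 144280513, plus strand), was counted at 566 and 556 against 91.2 and 116, which is 5.41-fold higher. Its span also overlaps an exon of Baiap2l1 on the minus strand, but the exons of the 2 genes were not compared. The strand setting of the counting was not given in the sources used here, and whether the 2 genes share reads was not tested. Neither Bri3 nor Baiap2l1 was analysed here.

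Gm2682 (chromosome 15, 60120540 to 60187408) was counted at 2492 and 2488 in YFP-positive Tregs, which were nearly equal, and at 597 and 1181 in YFP-negative mice 1 and 2, a log2 fold change of 1.57 ± 0.35. Gm28809 (chromosome 6, 125481363 to 125484678), antisense to the tetraspanin gene Cd9 within an intron, had 120 and 157 normalized counts against 41.2 and 43.2, a log2 fold change of 1.68 ± 0.49. Gm34086 (chromosome 5, 124032361 to 124076299) had 192 and 103 normalized counts against 51.0 and 36.0, so the YFP-positive libraries differed by more than the YFP-negative ones. It spans 43939 bases for a gene length of 743, and this span overlaps an exon of Abcb9 on the minus strand. Its own exons were not compared with that exon, so whether it shares reads with Abcb9 was not tested. Its log2 fold change was 1.69 ± 0.49, and without YFP-negative mouse 2 it did not pass (limma adjusted p = 0.0867). When p was adjusted over the 14239 genes that the ranks in the authors' deposited table imply were tested, neither Gm28809 (limma adjusted p = 0.0652) nor Gm34086 (0.0671) passed. In the alternatives that they passed, adjusted p was at most 0.0489 and 0.0426.

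RefSeq promoters, from 250 bases before to 50 after a start site in build GRCm38.p6, were found for 8 of the 21 members with an Ensembl identifier, all of them long noncoding RNAs. The 4 below are shown because they belong to the members that were listed at 0 in a group, that are richest in CpG, or that are best known. Capitals mark CpG dinucleotides in the first 3 and the AP-1 motif in the last. The promoters lie at chr2:9189265-9189564 (plus strand), chr1:57377495-57377794 (minus strand), chr5:124032051-124032350 (plus strand) and chr2:128429302-128429601 (minus strand). The last window lies inside the listed Gm14005 gene, which begins at 128502765 on the minus strand. It is thus at an internal start site and not at the outer start of the listed gene.
1700061F12Rik: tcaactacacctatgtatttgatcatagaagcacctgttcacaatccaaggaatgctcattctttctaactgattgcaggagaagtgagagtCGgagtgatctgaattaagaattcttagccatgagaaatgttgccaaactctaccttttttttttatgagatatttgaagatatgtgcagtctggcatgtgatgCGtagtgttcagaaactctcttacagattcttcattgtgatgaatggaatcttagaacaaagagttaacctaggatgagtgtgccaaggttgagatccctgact
4930558J18Rik: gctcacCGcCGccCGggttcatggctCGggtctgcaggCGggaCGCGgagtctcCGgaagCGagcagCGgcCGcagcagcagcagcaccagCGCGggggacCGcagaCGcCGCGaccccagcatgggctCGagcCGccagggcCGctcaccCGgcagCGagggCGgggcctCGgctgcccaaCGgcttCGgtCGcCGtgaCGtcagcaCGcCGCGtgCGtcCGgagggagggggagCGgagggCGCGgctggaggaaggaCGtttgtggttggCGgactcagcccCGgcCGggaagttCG
Gm34086: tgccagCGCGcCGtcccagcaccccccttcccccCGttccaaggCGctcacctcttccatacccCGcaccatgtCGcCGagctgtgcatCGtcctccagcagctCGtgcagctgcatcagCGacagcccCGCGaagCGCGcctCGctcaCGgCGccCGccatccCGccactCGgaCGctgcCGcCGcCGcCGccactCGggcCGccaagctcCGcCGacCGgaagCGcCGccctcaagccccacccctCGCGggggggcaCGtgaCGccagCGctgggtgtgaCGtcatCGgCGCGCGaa
Gm14005 (Morrbid): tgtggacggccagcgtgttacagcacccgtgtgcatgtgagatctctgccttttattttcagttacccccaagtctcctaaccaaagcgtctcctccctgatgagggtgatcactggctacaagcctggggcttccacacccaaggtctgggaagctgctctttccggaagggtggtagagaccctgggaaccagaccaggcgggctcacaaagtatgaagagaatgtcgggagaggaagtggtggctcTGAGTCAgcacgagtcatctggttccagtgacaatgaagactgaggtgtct

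These windows held 2 CpGs for 1700061F12Rik, 42 for 4930558J18Rik, 43 for Gm34086 and 8 for Gm14005, against a median of 7 over 32851 RefSeq promoters. The share of promoters with fewer CpGs was 14.1%, 97.0%, 97.4% and 51.4% for these 4, in the same order. The 2 CpG-rich promoters moved in opposite directions, since 4930558J18Rik was lower and Gm34086 was higher in YFP-positive Tregs. Both windows contain the start of a protein-coding gene on the other strand, 1700066M21Rik and Vps37b, respectively. The bodies of these genes lie 76 and 91 bases from that of the respective member. The CpG counts of these windows thus include bases at the coding gene starts. The other 9 windows, of Gm15708, Gm28809, Gm32633 and Gm33782, had 3 to 7 CpGs. Those of Gm28809, Gm32633 and Gm33782 include windows that end before the listed gene begins, and are thus not at its listed start. The AP-1 motif TGANTCA, searched on both strands, occurred once in the Gm14005 window and in 7.8% of all promoters. It was not found in the other 12 windows, nor were the forkhead motif TGTTTAC (3.6% of all promoters) or the GATA motif AGATAA (11.2%). The RUNX motif TGTGGT (16.8%) was found in the window of 4930558J18Rik and in 1 of 5 windows of Gm28809. A match is a description of the letters and not a binding site.

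Gm26917 (chromosome 17, 39843013 to 39846341, plus strand) had the highest counts of the 30 members. It lies 12 bases from CT010467.1, which GENCODE M21 annotates as ribosomal RNA. No part of its longest transcript was matched by an annotated transcript of another gene at 90% identity or more. Whether its reads came from ribosomal RNA was not tested. Its normalized counts were 8657 and 13619 in YFP-positive and 4698 and 3101 in YFP-negative mice 1 and 2, a log2 fold change of 1.51 ± 0.42 (SE; limma adjusted p = 0.000857). The difference was 0.88 on the log2 scale in mouse 1 and 2.13 in mouse 2. Gm28437, on the minus strand of chromosome 1 (24613189 to 24613971), is an unprocessed pseudogene whose 783 bases are identical to the transcript of mt-Co3, the mitochondrial gene for cytochrome c oxidase subunit 3. It was counted at 4851 and 7388 against 705 and 2010, which is 4.51-fold higher in YFP-positive Tregs (log2 fold change 2.33 ± 0.39). Leaving out YFP-negative mouse 1 gave 1.57 on this scale and leaving out YFP-negative mouse 2 gave 3.08, so the size depended on these libraries. Reads from mt-Co3 and from this copy cannot be told apart by sequence. The members took 12.5% and 15.5% of all listed normalized counts in YFP-positive and 5.6% and 6.3% in YFP-negative mice 1 and 2. Without Gm26917 and Gm28437, these shares were 5.87% and 5.85% against 3.89% and 4.49%. The counts of these 2 genes moved with the group, and the part of ribosomal or mitochondrial RNA in the other results was not tested.

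Of the 11 pseudogenes, 10 were matched by annotated transcripts of other genes over 100% of their longest transcript at 90% identity or more. The search included annotated pseudogenes, and whether the matching genes were transcribed here was not tested. For the 10 long noncoding RNAs that share was at most 22.8%, and it was 0 for 6 of them. The exception among the pseudogenes was Gm11346 (chromosome 13, 24596347 to 24604925), at 12.4%, which lies in an intron of Ripor2 on the other strand and was counted at 753 and 955 in YFP-positive against 232 and 328 in YFP-negative libraries. Unannotated transcripts have no sequence in the files used here and were not compared.

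**Figure D2:**
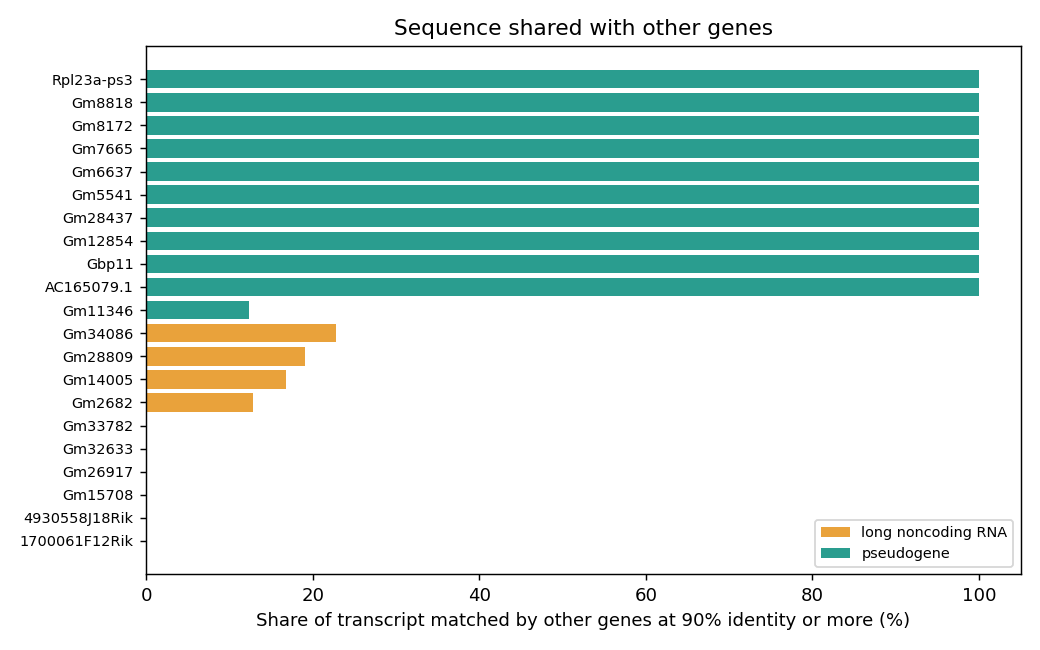
Share of the longest annotated transcript of each member with an Ensembl identifier (%, horizontal axis) that other genes match at 90% identity or more, for pseudogenes (green) and long noncoding RNAs (orange). Bars of 10 pseudogenes reach 100%, whereas no long noncoding RNA exceeds 22.8%.

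Gm12854 and Gm7665 are both processed copies of S100a11, which encodes a calcium-binding S100 protein and is itself in the table. The 297 bases of Gm12854 (mm10 chromosome 4, 116067268 to 116067564, in an intron of Uqcrh) and the coding sequence of S100a11 (gene on chromosome 3, 93520488 to 93526287) are shown because they differ at 3 positions only, marked in capitals.
Gm12854: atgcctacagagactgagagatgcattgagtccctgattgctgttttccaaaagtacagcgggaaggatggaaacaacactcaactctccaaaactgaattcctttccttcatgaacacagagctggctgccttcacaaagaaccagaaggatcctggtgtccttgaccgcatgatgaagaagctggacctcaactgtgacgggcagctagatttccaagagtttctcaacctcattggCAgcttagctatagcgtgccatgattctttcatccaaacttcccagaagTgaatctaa
S100a11: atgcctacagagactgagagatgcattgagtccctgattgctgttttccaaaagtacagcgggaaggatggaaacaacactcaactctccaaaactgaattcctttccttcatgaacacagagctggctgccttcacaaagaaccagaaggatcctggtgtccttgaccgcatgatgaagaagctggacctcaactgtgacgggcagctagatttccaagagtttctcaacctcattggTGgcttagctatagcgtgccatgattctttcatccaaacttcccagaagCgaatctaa

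Counted from the first base of Gm12854, with the S100a11 base first, the differences are T240C, G241A and C289T, and the longest stretch without a difference is 239 bases. Gm7665 (chromosome 18, 16274648 to 16274944) differs from S100a11 at 4 of 297 positions. S100a11 had 1995 and 3008 normalized counts in YFP-positive and 9028 and 7567 in YFP-negative mice 1 and 2, a log2 fold change of -1.75 ± 0.39. Gm7665 had 193 and 283 against 704 and 770, a log2 fold change of -1.65 ± 0.35, and Gm12854 had 67.6 and 88.0 against 261 and 208, at -1.58 ± 0.43. Without YFP-negative mouse 1, Gm12854 did not pass (limma adjusted p = 0.0642, against at most 0.0367 in its other alternatives). The ratio of Gm7665 to S100a11 was 0.0970 and 0.0941 in YFP-positive and 0.0780 and 0.102 in YFP-negative libraries, and that of Gm12854 was 0.0339 and 0.0293 against 0.0289 and 0.0275. The highest ratio exceeded the lowest by 1.31-fold and 1.23-fold, although S100a11 itself differed by 3.32-fold between the groups. As a share of S100a11, both copies were therefore nearly even over the 4 libraries. Among 246 coding genes with no library at 0, 7 kept a more constant ratio to Gm12854 than S100a11 did and 13 kept a more constant ratio to Gm7665.

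The table held 3 pseudogenes whose closest coding match was a ribosomal protein gene, and each was higher in YFP-positive Tregs. They are listed because they differed, and stand for no wider group. Rpl23a-ps3 (chromosome 14, 34170655 to 34171122) matched Rpl23a at 467 of 468 bases and had 2326 and 2726 normalized counts against 1202 and 1263, a log2 fold change of 1.03 ± 0.34. Gm8172 (chromosome X, 69605496 to 69606245), in an intron of Aff2, matched Rps6 at 744 of 750 bases and had 1157 and 1236 against 633 and 556, at 1.01 ± 0.33. These were the 2 smallest changes among the members. Leaving out YFP-positive mouse 2 gave Rpl23a-ps3 a limma adjusted p of 0.0616 and adjusting over 14239 genes gave 0.205, so that it passed in neither, and the same held for Gm8172 (0.0521 and 0.184). In their other alternatives adjusted p was at most 0.0355 and 0.0427. AC165079.1 (chromosome 16, 34006843 to 34007457), in an intron of Kalrn, matched Rpl15 at 614 of 615 bases and had 67.6 and 108 against 12.7 and 21.6, at 2.30 ± 0.58. At least 90% of the length of these 3 copies was matched by 30, 13 and 21 other genes, respectively, and Rpl23a, Rps6 and Rpl15 were not analysed here.

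Gm6637 (ENSMUSG00000108090, chromosome 6, 122295664 to 122296045, plus strand) is a processed copy of Snu13, a gene for a small nucleolar ribonucleoprotein component. Its first 300 bases are shown with the matching part of the Snu13 transcript (gene on chromosome 15, 82040525 to 82047598, minus strand). The reason is that the differences are spread along the sequence, unlike those between Gm12854 and S100a11. Capitals mark the 13 differences in this stretch. Over the whole match there were 15 mismatches and 1 gap.
Gm6637: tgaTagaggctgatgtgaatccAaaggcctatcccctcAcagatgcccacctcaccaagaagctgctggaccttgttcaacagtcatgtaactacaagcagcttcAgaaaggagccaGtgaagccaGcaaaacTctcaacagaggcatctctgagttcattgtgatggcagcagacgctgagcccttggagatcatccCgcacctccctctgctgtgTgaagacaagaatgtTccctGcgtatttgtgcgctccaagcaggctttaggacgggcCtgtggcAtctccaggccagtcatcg
Snu13: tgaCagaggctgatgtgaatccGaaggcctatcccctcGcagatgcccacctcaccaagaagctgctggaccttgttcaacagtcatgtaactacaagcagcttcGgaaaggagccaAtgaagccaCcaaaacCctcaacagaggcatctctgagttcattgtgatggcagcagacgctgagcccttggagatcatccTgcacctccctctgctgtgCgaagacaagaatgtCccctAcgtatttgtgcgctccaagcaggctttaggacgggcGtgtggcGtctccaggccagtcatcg

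The longest stretch without a difference from Snu13 is 66 bases, so any longer stretch of this match holds at least 1 difference. In all, 7 other genes, Snu13 included, matched at least 90% of the length of Gm6637 at 90% identity or more. Differences from the rest of them are not given here. Gm6637 had 441 and 738 normalized counts in YFP-positive and 3363 and 2620 in YFP-negative mice 1 and 2, which is 5.07-fold lower, a log2 fold change of -2.38 ± 0.34 (SE; limma adjusted p = 2.39e-07). Its nearest annotated coding gene, M6pr at 12.7 kb, was not analysed here. Its nearest listed coding gene is Klrg1, the inhibitory lectin receptor gene of differentiated T cells, 12.8 kb away on the other strand. Klrg1 was counted at 497 and 748 against 3703 and 2846. The ratio of Gm6637 to Klrg1 was 0.887 and 0.987 in YFP-positive and 0.908 and 0.921 in YFP-negative mice 1 and 2, a 1.11-fold range. No other of the 246 coding genes kept as constant a ratio to Gm6637, for which the median range was 2.81-fold. Per kb of gene length, Gm6637 reached 7831 and Klrg1 2316 mean normalized counts in YFP-negative Tregs. Snu13 was not analysed here.

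The remaining pseudogenes had partners that were nearby or related. Gbp11 (chromosome 5, 105323042 to 105346472), of the interferon-inducible guanylate-binding protein family, had the largest rise of all members with no library at 0. It was counted at 98.8 and 92.3 in YFP-positive and 11.8 and 8.10 in YFP-negative mice 1 and 2, a log2 fold change of 3.16 ± 0.60. Its biotype is polymorphic pseudogene, and GENCODE M21 also gives it a protein-coding transcript. Gbp10, 83.5 kb away on the same strand, was higher too, at 728 and 695 against 242 and 247. The ratio of Gbp11 to Gbp10 was not even, at 0.136 and 0.133 in YFP-positive and 0.0486 and 0.0327 in YFP-negative libraries. The YFP-negative ratios rest on low counts of Gbp11. The closest coding match to Gbp11 was Gbp4, at 91.1% identity.

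Gm8818 (chromosome 1, 153305432 to 153306478, plus strand) lies in an intron of Lamc1, the laminin gamma 1 gene on the minus strand, and was the only member that overlapped a listed coding gene. It had 110 and 61.5 normalized counts against 389 and 265, a log2 fold change of -1.95 ± 0.42, and Lamc1 had 139 and 124 against 361 and 348, at -1.42 ± 0.38. Both were lower. No exon of Lamc1 lies within Gm8818, so only reads from the Lamc1 intron could be shared. Without a stated strand setting, whether such reads were counted for Gm8818 was not tested. The closest coding match to Gm8818 was 4930453N24Rik, at 96.8% identity. Gm5541 (chromosome 3, 93628640 to 93629752), an unprocessed copy of Tdpoz4 at 97.3% identity, had 46.8 and 59.4 against 364 and 221, a log2 fold change of -2.41 ± 0.44.

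**Figure D3:**
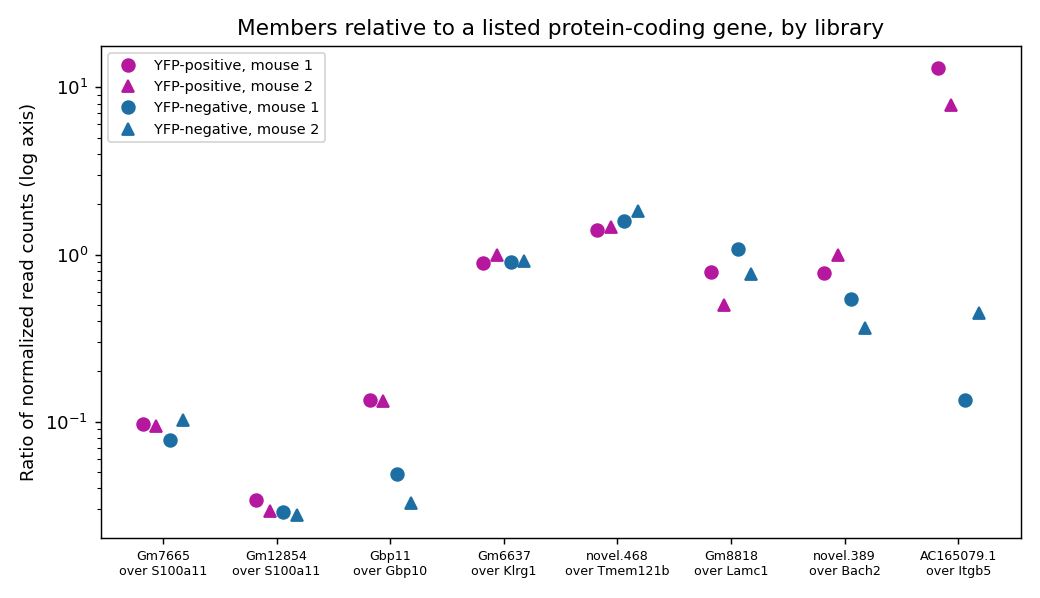
Ratio of the normalized counts of a member to those of a listed coding gene (log axis) in each library, for 8 pairs of copies, family members or neighbours; circles are mouse 1 and triangles mouse 2. Gm6637 over Klrg1 and the S100a11 copies stay level across the groups, whereas AC165079.1 over Itgb5 falls from 13.0 and 7.85 in YFP-positive to 0.135 and 0.444 in YFP-negative libraries.

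The 9 unannotated transcripts spanned 1599 to 48152 bases, and none overlapped an annotated protein-coding gene. The lower ones were those of chromosomes 2, 8 and 12. The chromosome 2 transcript (8946503 to 8993838, plus strand) had the largest fall of all members with no library at 0, from 972 and 1855 in YFP-negative to 80.1 and 233 in YFP-positive mice 1 and 2. This is 9.02-fold lower, a log2 fold change of -3.29 ± 0.39 (SE; limma adjusted p = 2.92e-09). The log2 fold change was -2.52 without YFP-positive mouse 1 and -4.05 without YFP-positive mouse 2, so its size depended on which of them was kept. The transcript lies 195.7 kb from 1700061F12Rik, and the nearest annotated coding gene to both is Gata3, the gene for a transcription factor of Th2 cells and of Tregs in tissues. Gata3 is 863.2 kb from the chromosome 2 transcript and 659.6 kb from 1700061F12Rik. It was lower as well, at 1502 and 1465 against 3543 and 2823, so all 3 listed genes of this stretch were lower in YFP-positive Tregs, by different amounts.

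The unannotated transcript of chromosome 8 (128527520 to 128544721, minus strand) lies 24.2 kb from Nrp1, a gene for a receptor found on thymus-derived Tregs that was not analysed here. It had 25.0 and 70.0 normalized counts in YFP-positive and 241 and 198 in YFP-negative mice 1 and 2, and its log2 difference was -3.22 in mouse 1 and -1.49 in mouse 2. Its log2 fold change over both mice was -2.35 ± 0.48, with -1.63 when YFP-positive mouse 1 was left out and -3.08 when YFP-positive mouse 2 was. The unannotated transcript of chromosome 12 (110345591 to 110393742) had the highest mean of the 9 over the 4 libraries, at 893 and 726 against 2167 and 1817, a log2 fold change of -1.30 ± 0.34.

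Among the higher unannotated transcripts, that of chromosome 4 (32159027 to 32160991, minus strand) lies 77.8 kb from Bach2, which encodes a repressor that keeps T cells in a resting state. It had 591 and 594 normalized counts in YFP-positive and 135 and 115 in YFP-negative mice 1 and 2, a log2 fold change of 2.24 ± 0.37 (SE; limma adjusted p = 1.50e-06). Bach2 was higher too, at 758 and 601 against 249 and 319, but the ratio of the chromosome 4 transcript to Bach2 was 0.779 and 0.988 in YFP-positive and 0.543 and 0.362 in YFP-negative libraries. The unannotated transcript of chromosome 6 (120502296 to 120503894) lies 5.6 kb from Hdhd5, its nearest annotated coding gene, which was not analysed here. It lies 8.5 kb from the listed gene Tmem121b, and both the transcript and Tmem121b were higher. It had 207 and 239 against 52.9 and 70.2, Tmem121b had 148 and 163 against 33.3 and 38.7, and their ratio had a 1.29-fold range.

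The unannotated transcript of chromosome 11 (99167159 to 99177509) lies 12.1 kb from Ccr7, the lymph node homing receptor gene, which was not analysed here. It had 701 and 399 normalized counts against 248 and 188, a log2 fold change of 1.29 ± 0.36. It did not pass without YFP-positive mouse 1, where its log2 fold change was 0.88 (limma adjusted p = 0.0524), or over 14239 genes (0.0526), against at most 0.0486 in its other alternatives. Its nearest listed coding gene was Igfbp4, 112.8 kb away, which encodes an insulin-like growth factor binding protein and was higher as well. The unannotated transcript of chromosome 5 (114890346 to 114894111) carries a deposited description that matches a retroviral Gag polyprotein, a kind of sequence found in endogenous retroviruses. It had 206 and 65.7 against 34.3 and 19.8, so the YFP-positive libraries were far apart. Its log2 fold change was 2.12 ± 0.55. It was 1.30 without YFP-positive mouse 1 (limma adjusted p = 0.0562) and 1.74 without YFP-negative mouse 2 (0.0962), and passed in neither, against an adjusted p of at most 0.0412 in its other alternatives. Leaving out YFP-positive mouse 2 raised it to 2.93. It lies 2.8 kb from Oasl2, an interferon-inducible gene not analysed here.

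The unannotated transcript of chromosome 3 (68784396 to 68795023) had 58.2 and 82.7 normalized counts against 14.7 and 7.20, and the unannotated transcript of chromosome 1 (136579485 to 136585033) had 104 and 62.6 against 14.7 and 18.9. The log2 fold changes were 2.63 ± 0.63 and 2.21 ± 0.58. The nearest listed coding genes, Ppm1l at 521.8 kb and Lad1 at 746.1 kb, were higher too.

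Over all members, 6 of 30 had a listed coding gene within 100 kb, and 5 of these 6 pairs had the same direction. They were Gm8818 with Lamc1, the chromosome 6 transcript with Tmem121b, Gm6637 with Klrg1, the chromosome 4 transcript with Bach2 and Gbp11 with Gbp10. AC165079.1 was the exception, since it was higher and Itgb5, an integrin gene 57.5 kb away, was lower, at 5.20 and 13.8 normalized counts in YFP-positive against 94.1 and 48.6 in YFP-negative libraries. Some of the 246 coding genes with no library at 0 kept a more constant ratio to the member than its neighbour did. They numbered 0 for Gm6637, 3 for the chromosome 6 transcript and 30 for Gbp11. For Gm8818, the chromosome 4 transcript and AC165079.1 they numbered 36, 51 and 234. Among the coding genes, 23 of 247 (9.3%) had another listed coding gene within 100 kb, and 23 of 23 had the same direction as it. Within 1000 kb, 13 of 14 members and 61 of 86 coding genes (70.9%) had the direction of their nearest listed coding gene. Pairs that share a gene or a stretch of genome are not independent, and these counts were not tested. The other 16 members had no listed coding gene within 1000 kb.

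**Figure D4:**
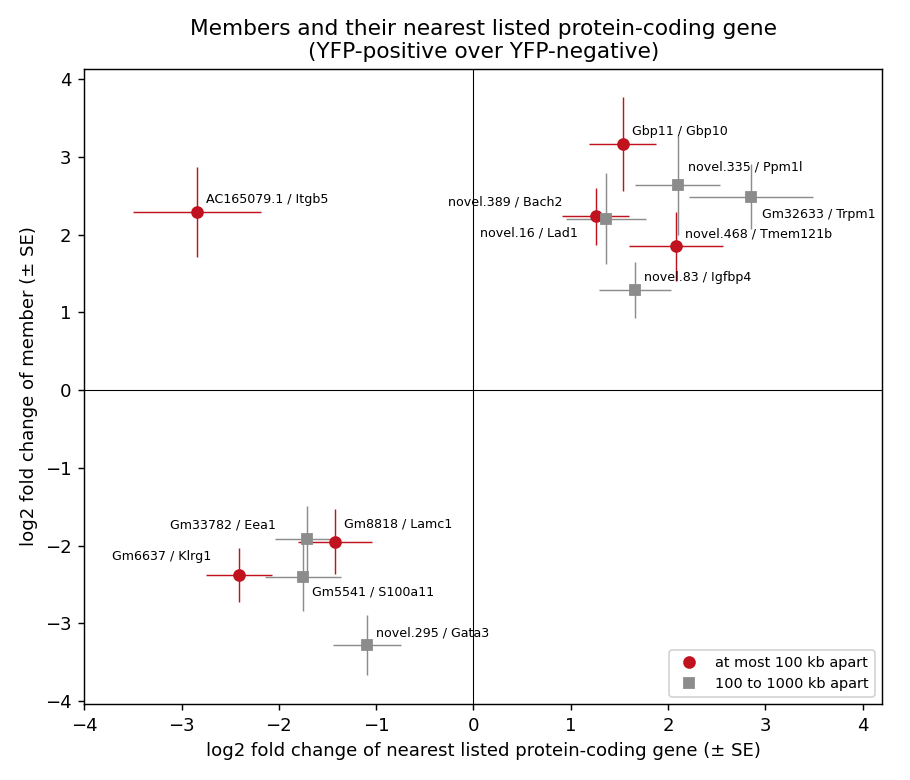
Log2 fold change (YFP-positive over YFP-negative, ± SE) of a member against that of its nearest listed coding gene, for 13 of the 14 pairs within 1000 kb; 1700061F12Rik is left out because it was listed at 0 in a group. Pairs at most 100 kb apart are red circles and the others grey squares, and all but AC165079.1 with Itgb5 lie in the quadrants where both genes have the same direction.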

How the data were processed

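RNA-seq was measured in 4 libraries of Tregs. The submitters' processing notes list HISAT2 (version 2.0.5), StringTie (1.3.3b), featureCounts (1.5.0-p3), DESeq2 (1.16.1) and the build mm10, and the design text of the series names DEGSeq (1.16.1). Which annotation was used, whether strand was considered and how multiply matching reads were counted is not given in the sources used here. Signal values as deposited are gene read counts that were scaled by the authors with a size factor for each library. The log2 fold changes and the p-values in the deposited table, adjusted ones included, are from the authors' own test. Every listed gene had an adjusted p of at most 0.0497 there and an absolute log2 fold change of at least 1.00. The depth of the libraries is unknown, because the table holds selected genes.

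limma 3.58.1 (R 4.3.3) was fitted to log2(value + 1) of all 282 genes with a variance trend, no block, two-sided tests and Benjamini-Hochberg adjustment. This scale makes the change of low genes look smaller. Folds are ratios of group means. The fit was tested on simulated data. The titles give both populations the mouse numbers 1 and 2. Deviations from the group means were correlated between the libraries of mouse 1 over 282 genes, which are not independent (Pearson's r = 0.395, Spearman's rho = 0.411), and another fit used the mouse number as a block. Coordinates of 21 of 21 members with Ensembl identifiers equalled those of GENCODE M21. Their longest transcripts were searched against all GENCODE M21 transcripts with BLAST 2.17.0 (at least 80% identity, E-value at most 1e-10). All 30 members are named, as the rule for at most 40 members required, and coding genes are named as neighbours, parents or family members. The members and lists were chosen with earlier results of these data known. No sequence of chromosome 18 is shown.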

Additional observations from a re-analysis of the deposited data

How the results depend on the processing

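Of the members, 12 passed as lower and 18 as higher, also with a pseudocount of 0.1 and with no variance trend. With the mouse number as a replicate block, 12 and 18 passed too, and this pairing changed no call. Among genes with a mean of at least 50, 11 lower and 17 higher members passed, since fewer genes were tested. With 1 library left out, 10 to 12 lower and 16 to 18 higher members passed, on the assumption that a lone library varies as the other population does. Adjusted over 14239 genes, that is, over more tests, 12 and 13 passed. Over the 9 alternatives with a test, 21 members passed each one that was run for them, 9 did not pass at least 1, and 0 changed direction, which groups that do not overlap fix in advance. Within a single mouse no test is possible. The limma value is the mean of the differences in mouse 1 and mouse 2, so both lie equally far from it. That distance was under 1 SE for 22 members. The 1 overlap with a listed coding gene, and the 1 such pair with the same direction, became 0 and 0 on the same strand, since Lamc1 lies opposite Gm8818. Members near a listed coding gene numbered 2 within 10 kb and 14 within 1000 kb, since a wider window holds more genes. An edgeR test on reads recovered from the values was not run. Low counts limit 1700061F12Rik and the unannotated transcript of chromosome 3, the 2 members with a mean under 50. They also limit Gbp11, AC165079.1 and the unannotated transcript of chromosome 1. In YFP-negative mice 1 and 2 these had 11.8 and 8.10, 12.7 and 21.6, and 14.7 and 18.9 normalized counts, respectively.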
